A study of Homo sapiens with 18 samples.

Results

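The comparison set MOLM-13 cells given dTRIM24 against MOLM-13 cells given DMSO, both at 4 h. MOLM-13 is an established human acute monocytic leukaemia line. dTRIM24 is a degrader that joins a ligand of the TRIM24 bromodomain to a ligand of the VHL ubiquitin ligase, and DMSO is the solvent alone. Each group held 3 libraries, and the deposited table gives their mean FPKM, a level per length of transcript and per library size. The same table holds 4 further groups of 3 libraries, namely IACS-9571 at 4 h (a ligand of the TRIM24 and BRPF1 bromodomains) and DMSO, IACS-9571 and dTRIM24 at 24 h, for 18 libraries in all. No dose is named in the labels, and the treatment protocol names 24 h for every sample while titles and time points name 4 h or 24 h, which were followed. Of 23621 gene rows, the 11058 with at least 1 FPKM in either 4 h group entered. Among these, 10811 rows were treated as polyadenylated genes and 247 as RNAs that lack a poly(A) tail, by their names. The 247 comprised 58 long RNAs and 189 small RNAs.

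TRIM24 is a chromatin reader and nuclear receptor cofactor whose bromodomain binds acetylated histone H3, and its removal has been studied in acute leukaemia as a dependency of the cells. Most messenger RNAs end in a poly(A) tail, but mRNAs of the replication-dependent histones end in a stem-loop bound by SLBP, and the RNAs of RNase P and RNase MRP, box C/D and H/ACA small nucleolar RNAs and microRNA precursors have ends without a tail. Cholesterol synthesis is controlled by SREBP transcription factors, which SCAP escorts out of the endoplasmic reticulum when sterols are low and INSIG proteins hold back when sterols are high.

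Differences are of log2(FPKM + 1), so that 1 is 2-fold, and they understate changes of low genes. Since the table holds 1 mean per group, a replicate error cannot be given for any value, differences are described without a test, the depth is unknown, and nothing in the labels says whether the 3 libraries were separate cultures. For scale, 25 ERCC spike-in RNAs with at least 5 FPKM in every group had a median difference of -0.05 and an SD of 0.21, which is no replicate error. Markers of the line were present: FLT3, the receptor kinase mutated in MOLM-13, had 95.8 FPKM in DMSO and 98.5 FPKM with dTRIM24, and the myeloid antigen CD33 had 31.7 and 27.8 FPKM. Of the marker lists of other cells, 1 of 12 T and NK cell genes, 1 of 7 B cell genes, 0 of 12 erythroid and platelet genes and 3 of 12 stromal and epithelial genes reached 1 FPKM. CD3E, CD2 and HBB were at 0.0914 FPKM in DMSO and 0.104 FPKM with dTRIM24, a value that 6059 gene rows share in each column. The mRNA of TRIM24, the protein that dTRIM24 is made to degrade, had 14.6 FPKM in DMSO and 17.3 FPKM with dTRIM24 (a difference of 0.23); protein was not measured here.

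With dTRIM24, 183 rows were past 2-fold higher (1.65% of all rows) and 36 past 2-fold lower (0.326%). They lay mostly among RNAs without a tail. Of the 247 RNAs without a tail, 168 (68%) were past 2-fold higher and 34 (13.8%) past 2-fold lower. Of the 10811 polyadenylated genes, 15 (0.139%) were past 2-fold higher and 2 (0.0185%) past 2-fold lower. The filter bears on this contrast. Under 1 FPKM in DMSO, and so bound to be higher, were 39 of 53 histone genes, 74 of 189 small RNAs and 106 polyadenylated genes. Of those with at least 1 FPKM in DMSO, 12 of 14 histone genes and 43 of 115 small RNAs were past 2-fold higher. Of 10705 polyadenylated genes with that level, 13 were. Past 2-fold lower were 0, 34 and 2 in the same order. The polyadenylated genes lay close together between the means, with 90.1% within 1.2-fold, a median of -0.01 and an SD of 0.17. On the same rows, IACS-9571 at 4 h had 61 past 2-fold higher (0.552%) and 44 lower (0.398%) against the same DMSO mean.

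**Figure D1:**
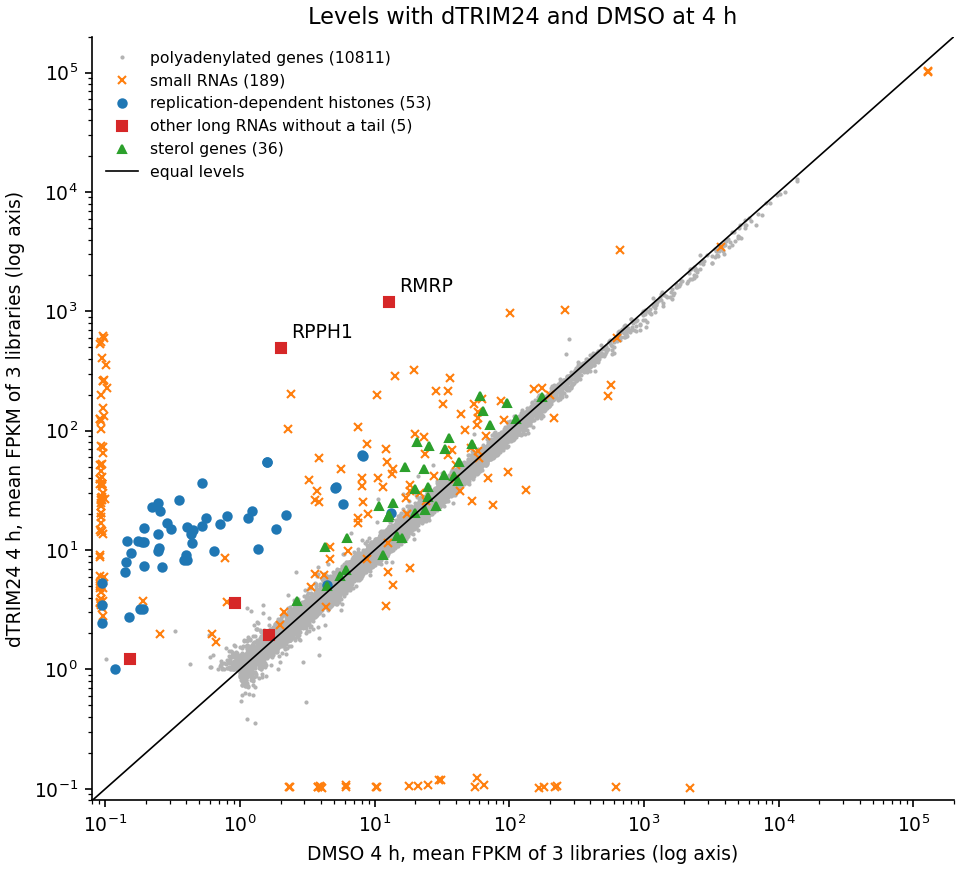
Mean FPKM with dTRIM24 (vertical, log axis) against DMSO (horizontal, log axis) at 4 h, 1 point per row. Histones, RMRP and RPPH1 lie above the line of equal levels, small RNAs lie on both sides, some at the table's lowest value in one group, and the 10811 polyadenylated genes lie along it. Of the 53 histone genes, 39 were under 1 FPKM in DMSO and so had to lie above the line.

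The replication-dependent histone genes, which encode the core and linker histones made for new chromatin in S phase, were higher with dTRIM24. Of 72 such genes in the table, 53 reached 1 FPKM in either group. Their levels in DMSO ran from 0.0938 to 13.3 FPKM with a median of 0.382 FPKM, and with dTRIM24 from 1.005 to 62.6 FPKM with a median of 13.6 FPKM. All 53 lay above DMSO and 50 were past 2-fold, with a median difference of 3.11. Since 39 of them were under 1 FPKM in DMSO and entered only through the dTRIM24 mean, these had to be higher there. Of the 14 with at least 1 FPKM in DMSO, among them near-identical copies that share reads, 12 were past 2-fold higher, with a median of 2.59 over the 14. The summed level of the 53 genes was 72.6 FPKM in DMSO and 916 FPKM with dTRIM24. In a bulk sample, more cells of a kind and more RNA per cell cannot be told apart. Whether RNAs without a tail entered the libraries of both groups in equal share was not tested.

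The stem-loop at the end of these mRNAs is shown because it is what separates them from other mRNAs. It was found in the transcripts of 24 of the 53 genes in the GENCODE annotation, whose models for others stop at the coding end, and it took 5 forms, of which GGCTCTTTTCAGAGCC was that of 12 genes. It was found in the last 200 bases of 1 of 10267 polyadenylated protein-coding genes of the comparison, while 79.2% of those carry the poly(A) signal AATAAA in the last 40 bases of a transcript. Below, the stem-loop stands in capitals with 5 bases on each side, at GRCh38 positions; GRCh38 is the build of the reference and not the hg19 build of the submitters' processing notes.
HIST2H3A (chr1:149853100-149853125, plus strand): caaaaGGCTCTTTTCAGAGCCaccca
HIST2H4A (chr1:149833027-149833052, plus strand): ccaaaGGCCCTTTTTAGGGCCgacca
HIST1H4E (chr6:26204996-26205021, plus strand): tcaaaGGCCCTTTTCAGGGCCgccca
HIST2H2BF (chr1:149811880-149811905, minus strand): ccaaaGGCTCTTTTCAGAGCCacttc
HIST1H2BD (chr6:26158582-26158607, plus strand): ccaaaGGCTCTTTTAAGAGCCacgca
HIST1H2AG (chr6:27133510-27133535, plus strand): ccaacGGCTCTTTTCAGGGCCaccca

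The 24 genes with the stem-loop in their model had a median difference of 3.25 and the other 29 a median of 2.85. Their median levels in DMSO were 0.674 and 0.256 FPKM. As 39 of the 53 genes entered only through the dTRIM24 mean, the filter bears on all medians of this paragraph. Of the 24, 16 also have a transcript model that runs on to a poly(A) signal; their median was 3.15, and that of the 8 without one was 3.41.

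The counts by family describe the kept genes, and the filter bears on them: all 8 H3 genes, 3 of 4 H1 genes, 10 of 15 H2A genes, 10 of 14 H2B genes and 8 of 12 H4 genes were under 1 FPKM in DMSO and entered only through the dTRIM24 mean. Of those with at least 1 FPKM in DMSO, 5 of 5 H2A, 2 of 4 H2B, 4 of 4 H4 and 1 of 1 H1 genes were past 2-fold higher, and no H3 gene can be read in this way. Over genes with that level, the median was 2.50 for H2A, 1.64 for H2B and 3.62 for H4, and the H1 gene stood at 2.49. H4, which pairs with H3 in the nucleosome core, had 12 of 12 genes past 2-fold, with a median of 3.41. Its copies HIST2H4A and HIST2H4B stood at 54.6 and 55.1 FPKM with dTRIM24 against 1.59 FPKM each in DMSO; near-identical copies such as these share reads and cannot be counted apart. HIST1H4E had 24.9 FPKM against 0.246 FPKM. HIST1H4J and HIST1H4K, the highest H4 genes in DMSO, went from 8.13 to 60.8 FPKM and from 8.02 to 62.6 FPKM. Their levels were nearly equal in every group. So were those of HIST2H2AA3 and HIST2H2AA4, at 5.08 and 5.12 FPKM in DMSO and 33.4 and 33.5 FPKM with dTRIM24. Such pairs make up all 4 H4 genes and part of the 5 H2A genes counted above, so those counts are not of separate genes. For H3, 8 of 8 genes were past 2-fold with a median of 3.27, led by HIST2H3A at 36.8 FPKM against 0.521 FPKM and HIST1H3B at 26.2 FPKM against 0.349 FPKM. H2A had 15 of 15 with a median of 2.72, from HIST1H2AK, at 2.43 FPKM against 0.0942 FPKM, to HIST1H2AJ, at 18.6 FPKM against 0.562 FPKM. H2B had 12 of 14 with a median of 3.04, led by HIST2H2BF at 23.2 FPKM against 0.223 FPKM. The linker histones had 3 of 4 with a median of 3.14, led by HIST1H1B at 21.4 FPKM against 0.256 FPKM, followed by HIST1H1E at 16.9 FPKM against 0.289 FPKM.

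The other 3 genes did not reach 2-fold. HIST1H2BK, the highest histone gene in DMSO, had 13.3 FPKM there and 20.6 FPKM with dTRIM24 (0.59). HIST2H2BC had 4.42 and 5.11 FPKM (0.17). HIST1H1D had 0.119 and 1.005 FPKM (0.84). By location, 39 of 41 genes of the HIST1 cluster on chromosome 6 and 11 of 12 genes of the HIST2 cluster on chromosome 1 were past 2-fold. The filter bears on these counts too, as 39 of all 53 genes were under 1 FPKM in DMSO. Over all rows of the comparison, 1.65% were past 2-fold higher.

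**Figure D2:**
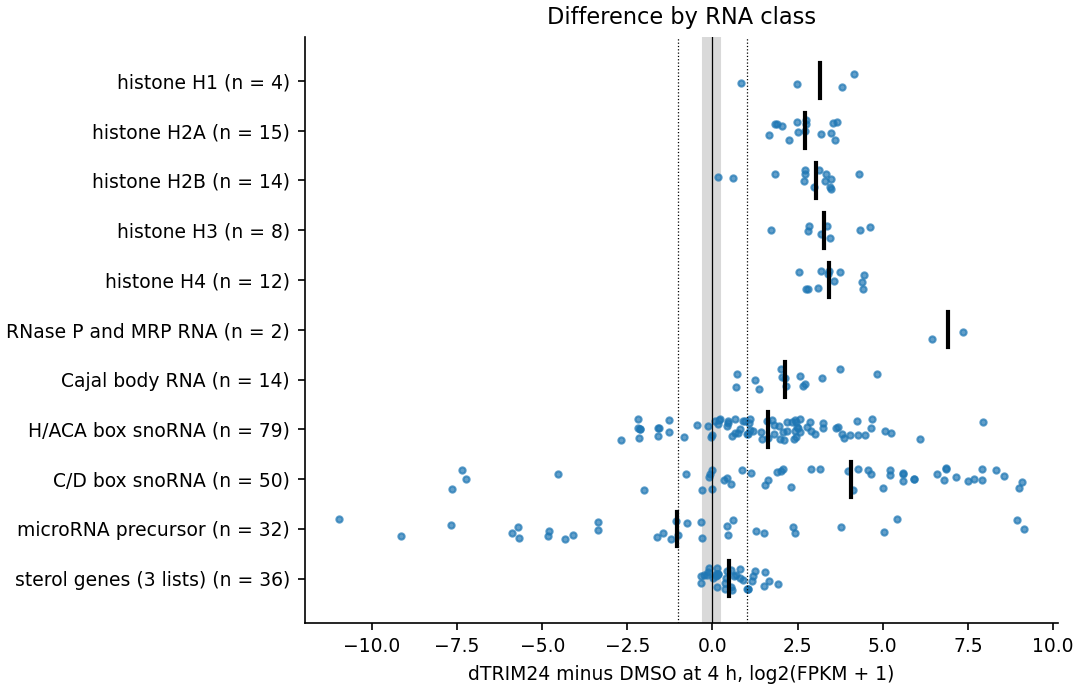
Difference of log2(FPKM + 1) between dTRIM24 and DMSO at 4 h (horizontal) for the members of each class, 1 point per row; black bars are medians, dotted lines mark 2-fold and the grey band spans the 5th to 95th percentile of polyadenylated genes. Histone families have medians between 2.72 and 3.41, small RNAs spread to both sides, and the sterol genes have a median of 0.49. Of the 53 histone genes, 39 entered only through the dTRIM24 mean. Over the 14 with at least 1 FPKM in DMSO the median is 2.59.

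Across the 6 groups, the dTRIM24 mean at 4 h was the highest for all 53 histone genes, 39 of which were kept because of that mean. It was also the highest for all 14 with at least 1 FPKM in DMSO, beside 23.7% of the 10705 polyadenylated genes with that level in DMSO. Summed histone levels in the other groups were 94.7 FPKM with IACS-9571 at 4 h, 97.7 FPKM in DMSO at 24 h, 59.7 FPKM with IACS-9571 at 24 h and 76.1 FPKM with dTRIM24 at 24 h. HIST2H3A, for example, had 0.521 FPKM in DMSO, 1.07 FPKM with IACS-9571 and 36.8 FPKM with dTRIM24 at 4 h, then 1.80, 0.323 and 0.884 FPKM in the same order at 24 h.

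**Figure D3:**
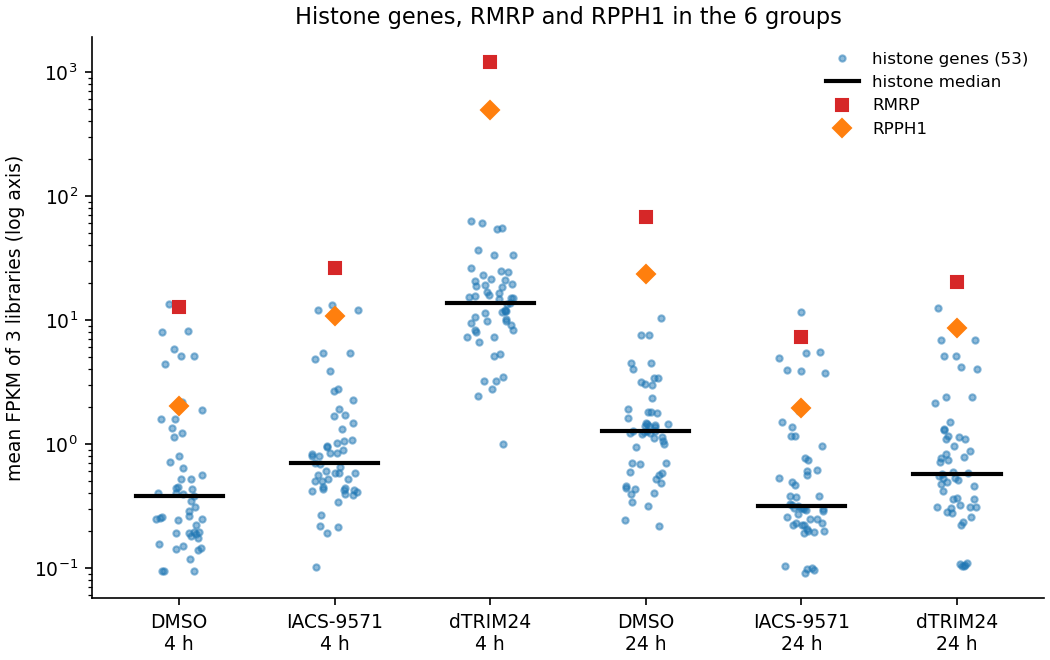
Mean FPKM (log axis) of the 53 histone genes (points, bar at the median), RMRP and RPPH1 in the 6 groups. The dTRIM24 group at 4 h stands above the other 5, with a histone median of 13.6 FPKM against 0.382 FPKM in DMSO at 4 h. Of the 53 histone genes, 39 were under 1 FPKM in DMSO at 4 h and entered only through the dTRIM24 mean.

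The windows before the start sites were searched because the histone genes were high together. In RefSeq windows from 250 bases before to 50 after a start, on both strands, CCAAT (the NF-Y box) stood in 36 of 44 matched histone genes (81.8%) against 39.7% of all genes of the RefSeq table, the octamer ATTTGCAT in 18 (40.9%) against 2.19%, and TATAAA in 32 (72.7%) against 14.0%. By family, CCAAT was in every matched H1, H2A, H2B and H3 gene and in 2 of 10 H4 genes. The motifs were searched one by one and may overlap. The octamer was in 10 of 14 H2A and 7 of 10 H2B genes, 1 of 6 H3 genes and 0 of 10 H4 genes. A match describes letters and is no evidence of binding. The 120 bases before the start follow for an H3 gene and an H2B gene (GRCh38), and no H1, H2A or H4 gene is printed. CCAAT on either strand, the octamer and TATAAA stand in capitals.
HIST2H3A (chr1:149852488-149852607, plus strand): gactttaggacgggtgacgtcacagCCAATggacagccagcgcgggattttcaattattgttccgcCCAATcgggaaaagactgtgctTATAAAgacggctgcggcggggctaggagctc
HIST2H2BF (chr1:149812371-149812490, minus strand): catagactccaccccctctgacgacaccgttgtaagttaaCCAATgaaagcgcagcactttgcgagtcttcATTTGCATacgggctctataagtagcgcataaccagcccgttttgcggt

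The genes that make histone mRNA ends stood near 0. Of 18 such genes, none was past 1.5-fold and the median was 0.02. Since only 0.342% of all polyadenylated genes were past 1.5-fold higher and 0.102% lower, a count of 0 in this list or in any list named further on is near the background and is no result about its genes. SLBP, the stem-loop binding protein, had 115 FPKM in DMSO and 117 FPKM with dTRIM24, and NPAT, the coactivator of histone transcription, had 6.89 and 7.97 FPKM. LSM10 and LSM11 of the U7 particle differed by -0.20 and -0.04, ZNF473 by 0.00, CASP8AP2 by 0.22 and SYMPK by -0.24. ERI1, the exonuclease that trims histone ends, differed by 0.14, and the cap and processing factors NCBP1, NCBP2, CPSF2, CPSF3, CSTF2 and SRRT lay between -0.12 and 0.11. The decay factors UPF1, LSM1, ZCCHC6 and ZCCHC11 lay between -0.13 and 0.14. Of 42 genes of S phase and DNA replication none was past 1.5-fold, with 18 above and 24 below 0 and a median of -0.02. Among 11 kept histone variants whose mRNAs have a tail, H2AFZ stood at 875 and 839 FPKM, H2AFX at 42.1 and 37.5 FPKM, and CENPA at 26.5 and 25.1 FPKM. The exception was H3F3A, at 27.2 FPKM in DMSO and 51.4 FPKM with dTRIM24 (0.89). Its reads are shared with processed copies: H3F3AP4 had 1174 and 1104 FPKM, and H3F3A, H3F3AP4, H3F3B and H3F3C together had 1458 and 1405 FPKM, so its own value is uncertain.

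RPPH1 and RMRP, the catalytic RNAs of RNase P, which matures transfer RNA, and of RNase MRP, which cuts ribosomal RNA precursors, had the largest differences among long RNAs. RPPH1 had 2.01 FPKM in DMSO and 493 FPKM with dTRIM24, a difference of 7.36. RMRP had 12.7 FPKM and 1196 FPKM, a difference of 6.45. Both varied in the other groups too: RPPH1 had 10.7 FPKM with IACS-9571 at 4 h and 23.5, 1.95 and 8.57 FPKM in DMSO, IACS-9571 and dTRIM24 at 24 h, and RMRP had 26.2 FPKM with IACS-9571 at 4 h and 67.1, 7.25 and 20.2 FPKM at 24 h. The DMSO means alone thus differed between 4 h and 24 h for both RNAs, and the dTRIM24 mean at 4 h stood above all 5 others. The RMRP sequence, 268 bases in GRCh38, is printed as an example of an RNA that ends without a poly(A) signal: AATAAA is in the last 40 bases of neither RMRP nor RPPH1.
RMRP (chr9:35657751-35658018, minus strand): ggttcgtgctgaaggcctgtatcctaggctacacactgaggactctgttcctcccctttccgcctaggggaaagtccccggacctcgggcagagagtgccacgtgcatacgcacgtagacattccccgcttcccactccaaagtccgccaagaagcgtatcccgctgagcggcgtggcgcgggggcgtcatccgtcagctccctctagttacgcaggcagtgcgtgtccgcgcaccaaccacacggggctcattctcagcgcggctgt

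The protein partners of these RNAs stood near 0. Of 10 RNase P and MRP proteins, 5 were above and 5 below 0, none past 1.5-fold, with a median of 0.00. The scaffold protein POP1 had 10.4 and 10.7 FPKM and RPP30 had 23.8 and 26.2 FPKM, a difference of 0.13. RPP40, RPP14, RPP38, POP4 and POP5 lay between -0.09 and 0.09, RPP25 at -0.17, POP7 at -0.24 and RPP21, the lowest, at -0.28. The 28 genes of RNA polymerase III, which transcribes both RNAs, had a median of 0.00, with 14 above and 14 below 0.

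Of the other long RNAs without a tail, MALAT1, a nuclear RNA whose end RNase P cuts, had 0.911 FPKM in DMSO and 3.58 FPKM with dTRIM24 (1.26). Its neighbour NEAT1, the RNA of paraspeckles, had 1.64 and 1.95 FPKM (0.16). NEAT1 was placed in this class by name alone, and its transcript forms were not counted apart. TERC, the template RNA of telomerase, had 0.153 and 1.23 FPKM (0.95). MALAT1 and TERC were under 1 FPKM in DMSO and entered only through the dTRIM24 mean, so both had to be higher.

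Small RNAs went both ways: 115 of 189 were past 2-fold higher and 34 past 2-fold lower. Many hung on the lowest values of the table. In DMSO 69 of the 189 were under 0.2 FPKM; they entered through the dTRIM24 mean and all 69 were past 2-fold higher, yet 32 of them were over 1 FPKM in DMSO at 24 h. With dTRIM24 25 were under 0.2 FPKM. These 25 entered only through the DMSO mean and so had to be lower, and all were past 2-fold lower. Over 120 small RNAs with at least 0.2 FPKM in DMSO, 46 were past 2-fold higher and 34 lower with a median of 0.47. Over 61 with at least 0.2 FPKM in all 6 groups, 33 were past 2-fold higher and 6 lower, with a median of 1.09, and the median with IACS-9571 was 0.03. FPKM of RNAs shorter than a sequenced fragment are poorly defined, so the size of these values is uncertain.

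By class, counted over all kept members, box C/D snoRNAs, which guide methylation of ribosomal RNA, had 35 of 50 higher and 5 lower with a median of 4.05. Box H/ACA snoRNAs, which guide pseudouridylation, had 49 of 79 higher and 11 lower with a median of 1.63. Of 14 Cajal body RNAs, guides of spliceosomal RNA modification, 12 were higher and 0 lower with a median of 2.14, but 13 of the 14 were under 1 FPKM in DMSO and entered only through the dTRIM24 mean, and the other, SCARNA12, had 4.68 and 8.40 FPKM (0.73). MicroRNA precursors were more often lower, with 9 of 32 higher and 17 lower and a median of -1.05. Of the 4 spliceosomal RNAs 3 were higher, RNU11 among them with 133.9 FPKM against 0.0982 FPKM, and RNU6ATAC was lower. Those 3 were under 1 FPKM in DMSO, entered only through the dTRIM24 mean and so had to be higher. Of 7 SNAR genes, near-identical copies, 6 were higher. These 6 were also under 1 FPKM in DMSO and bound to be higher, and the other stood at 0.89. Over members with at least 1 FPKM in DMSO, 12 of 27 C/D snoRNAs were higher and 5 lower with a median of 0.54, 28 of 57 H/ACA snoRNAs were higher and 11 lower with a median of 0.94, and 3 of 26 microRNA precursors were higher and 17 lower with a median of -1.55. That choice keeps every member that entered only through the DMSO mean and so had to be lower. The direction of the microRNA precursors therefore cannot be read apart from the filter. The vault RNA VTRNA1-3 had 0.0924 FPKM in DMSO and 74.0 FPKM with dTRIM24, and it too entered only through the dTRIM24 mean. RNA5SP244, a 5S ribosomal RNA copy, stood at 174 and 229 FPKM (0.40) and BCYRN1, the BC200 RNA, at 2.11 and 3.01 FPKM (0.37).

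The differences of largest size were MIR663A (620.8 FPKM against 0.0967 FPKM), SNORD87 (599 FPKM against 0.0984 FPKM), SNORD47 (554 FPKM against 0.0935 FPKM), MIR922 (536 FPKM against 0.0913 FPKM) and SNORD32A (409 FPKM against 0.0946 FPKM). Those of the other direction were MIR3191 (2214 FPKM in DMSO and 0.102 FPKM with dTRIM24), MIR4687 (625 and 0.104 FPKM), MIR4517 (226 and 0.106 FPKM), SNORD79 (219 and 0.104 FPKM) and SNORD104 (180.1 and 0.104 FPKM). In each of these 10, 1 of the 2 means was at the bottom of the table. SNORD87 had 1368 FPKM with IACS-9571 at 4 h and 1933 FPKM in DMSO at 24 h, so its DMSO mean at 4 h stands apart and not its dTRIM24 mean.

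C/D, H/ACA and Cajal body RNAs that were well above the bottom of the table varied too. Of 58 with at least 5 FPKM in both groups, 32 were past 2-fold higher, 3 past 2-fold lower and 23 neither. Those named here were chosen after their values were seen, as examples of each kind. SNORD100 had 662 FPKM in DMSO, 645 FPKM with IACS-9571 and 3249 FPKM with dTRIM24 at 4 h. SNORA48 had 14.1, 25.9 and 288 FPKM. Others were level: SNORD76 had 3711 FPKM in DMSO and 3441 FPKM with dTRIM24, SNORD33 had 632 and 601 FPKM, and SNORA4 had 59.1 and 58.7 FPKM. SNORD83B was lower, at 132 and 32.2 FPKM. SNORD100 and SNORA48 lie within protein genes that were nearly level: RPS12, host of SNORD100, had 10204 and 9585 FPKM, and EIF4A1, host of SNORA48, had 1103 and 974 FPKM. Of the 110 guide RNAs that lie within another gene in GENCODE, 71 were past 2-fold higher and 13 past 2-fold lower with a median of 1.81, counted with those at the bottom of the table in DMSO. Their 83 distinct hosts had a median of -0.04 and a range of -0.34 to 0.26, with 0 past 2-fold. The sequences of SNORA48 and SNORD100 follow, with boxes C and D of the C/D RNA and the ACA box of the H/ACA RNA in capitals (GRCh38).
SNORA48 (chr17:7574713-7574847, plus strand): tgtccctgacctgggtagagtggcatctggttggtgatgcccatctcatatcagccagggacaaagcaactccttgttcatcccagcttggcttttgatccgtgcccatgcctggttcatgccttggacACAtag
SNORD100 (chr6:132816802-132816877, plus strand): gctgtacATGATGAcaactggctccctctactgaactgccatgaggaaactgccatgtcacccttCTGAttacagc

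Among polyadenylated genes, those of cholesterol synthesis were higher with dTRIM24. Of the 15 past 2-fold, 10 belong to the sterol lists and 12 to the sterol or fatty acid lists. Of the 36 kept sterol genes, 30 were above 0, 10 past 2-fold and none past 2-fold lower, with a median difference of 0.49 beside -0.01 for all polyadenylated genes. The lists were chosen with these results known, so they are no independent evidence.

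In the mevalonate pathway 8 of 9 genes were higher, with a median of 0.62. HMGCS1, which makes HMG-CoA, had 20.7 FPKM in DMSO and 81.1 FPKM with dTRIM24 (1.92), the largest difference of any polyadenylated gene. ACAT2, the step before it, had 71.5 and 111 FPKM (0.62). MVK, mevalonate kinase, had 10.7 and 23.2 FPKM (1.05), and IDI1, the isopentenyl diphosphate isomerase, 63.4 and 146 FPKM (1.19). MVD stood at 0.54, FDPS at 0.12, GGPS1, which leads away from sterols, at 0.02, and PMVK at -0.13, so the steps were not equally higher.

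From squalene to cholesterol all 13 genes were above 0, with a median of 0.81. SQLE, the squalene epoxidase, had 25.2 and 75.1 FPKM (1.54). MSMO1, a methyl sterol oxidase, had 16.7 and 49.3 FPKM (1.504), CYP51A1, the lanosterol demethylase, 35.9 and 86.2 FPKM (1.24), and DHCR7, the last step, 23.2 and 47.8 FPKM (1.01). FDFT1, which makes squalene, had 96.3 and 169.8 FPKM (0.81). HSD17B7 stood at 0.81, SC5DL at 0.91, LSS at 0.58, NSDHL at 0.43, TM7SF2 at 0.37, EBP at 0.36 and LBR, which also anchors chromatin to the nuclear lamina, at 0.15.

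Control genes of the pathway split. INSIG1, the sterol sensor that holds SCAP back, had 60.9 and 195.9 FPKM (1.67), and STARD4, a sterol carrier, 4.25 and 10.7 FPKM (1.16). TMEM97 stood at 0.38 and NPC1 and NPC2, which move cholesterol out of lysosomes, at 0.15 each. The factors themselves were nearly level or lower: SREBF2 at 0.10, SREBF1 at -0.26, SCAP at -0.33, MBTPS1 at -0.11 and MBTPS2 at 0.13. INSIG2 stood at 0.14 and MYLIP, a ubiquitin ligase, at -0.32. Of 7 kept genes of sterol efflux and LXR, 3 were above and 4 below 0, with a median of -0.05 and none past 1.5-fold; NR1H2, which encodes LXR-beta, was lowest at -0.30.

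**Figure D4:**
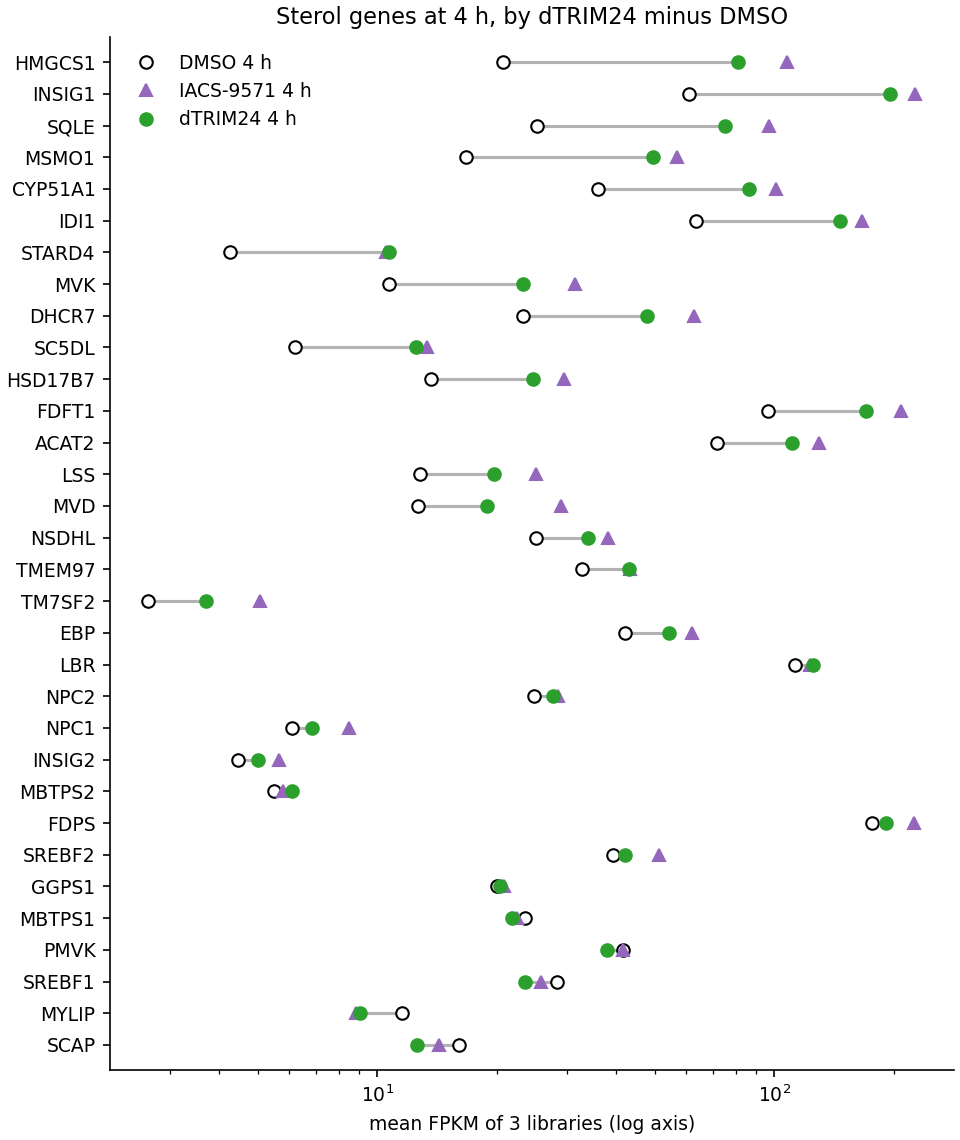
Mean FPKM (log axis) of 32 of the 36 sterol genes in DMSO (open circles), IACS-9571 (triangles) and dTRIM24 (filled circles) at 4 h, sorted by the difference between dTRIM24 and DMSO. HMGCS1 stands at the top with 20.7 FPKM in DMSO and 81.1 FPKM with dTRIM24, and the 5 genes at the bottom lie below DMSO.

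With IACS-9571 at 4 h, against the same DMSO mean, the 36 sterol genes had a median of 0.79. HMGCS1 had 107.6 FPKM, INSIG1 226 FPKM and SQLE 97.0 FPKM with IACS-9571. As no dose is known, the compounds are set side by side and not compared. At 24 h the levels were near DMSO again: HMGCS1 had 18.7 FPKM in DMSO and 22.4 FPKM with dTRIM24, and the 36 genes had a median of 0.31 at that time, beside 0.26 for all polyadenylated genes.

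Genes of fatty acid synthesis, which SREBP factors also serve, had 11 of 14 above 0 and a median of 0.30. SCD, the stearoyl-CoA desaturase, had 276 and 589.7 FPKM (1.09), FADS1, the delta-5 desaturase, 10.6 and 26.6 FPKM (1.26), and FADS2, the delta-6 desaturase, 21.1 and 41.7 FPKM (0.95). FASN, the synthase, stood at 0.34, ACSL3 at 0.32 and ACSS2 at 0.31.

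The search of start windows was repeated for these genes. CCAAT was in 14 of 17 matched cholesterol enzymes (82.4%) and in 43.7% of the matched polyadenylated genes of the comparison. TCACNCCAC, a form of the sterol regulatory element, was in 0 of the 17 and in 1.39% of all genes, which says only that these letters are not in these windows. The 120 bases before the start of 4 of the genes past 2-fold follow, with CCAAT on either strand in capitals (GRCh38).
HMGCS1 (chr5:43313413-43313532, minus strand): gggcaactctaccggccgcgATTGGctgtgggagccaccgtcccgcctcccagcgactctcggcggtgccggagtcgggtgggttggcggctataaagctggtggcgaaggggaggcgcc
MSMO1 (chr4:165327549-165327668, plus strand): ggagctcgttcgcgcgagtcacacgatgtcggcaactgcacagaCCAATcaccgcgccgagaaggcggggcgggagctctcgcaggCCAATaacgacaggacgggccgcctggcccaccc
MVK (chr12:109573674-109573793, plus strand): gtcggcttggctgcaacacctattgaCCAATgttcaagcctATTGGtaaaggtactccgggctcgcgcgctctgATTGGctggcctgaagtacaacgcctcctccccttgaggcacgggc
DHCR7 (chr11:71448394-71448513, minus strand): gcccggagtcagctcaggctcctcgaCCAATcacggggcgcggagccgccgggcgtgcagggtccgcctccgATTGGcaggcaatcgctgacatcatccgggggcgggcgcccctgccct

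At 1.5-fold, 37 polyadenylated genes were higher (0.342%) and 11 lower (0.102%). Of the 37, 18 are sterol or fatty acid genes. Others outside those lists with at least 5 FPKM were GLO1, the glyoxalase that clears methylglyoxal, at 265 and 438 FPKM (0.72), LPIN1, a phosphatidate phosphatase, at 3.78 and 7.28 FPKM (0.79), LONRF1 at 10.5 and 17.4 FPKM (0.68), C6orf223 at 2.63 and 6.55 FPKM (1.06), MTRNR2L8, a copy of mitochondrial sequence, at 55.0 and 93.7 FPKM (0.76), and HSD17B7P2, a copy of HSD17B7, at 4.50 and 7.66 FPKM (0.65). RPLP0P2, a copy of a ribosomal protein gene, had 3.83 and 6.28 FPKM (0.59). SLCO4C1, an organic anion transporter, lay just under 2-fold, at 1.13 and 3.26 FPKM. Just inside the threshold stood DHCR7, at 1.01, and HSPE1-MOB4, at 1.01.

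Several calls were of read-through rows that share reads with their parts. PPAN-P2RY11 had 0.328 and 2.08 FPKM, while PPAN had 40.8 and 33.9 FPKM. RBM14-RBM4 had 6.71 and 13.8 FPKM, while RBM14 had 26.9 and 21.8 FPKM. SERF2-C15ORF63 had 16.3 and 29.4 FPKM and HYPK, which it contains, 38.3 and 24.6 FPKM (-0.62); their sum was 54.6 FPKM in DMSO and 53.95 FPKM with dTRIM24. NME1-NME2 had 13.4 and 8.003 FPKM (-0.68). Both genes past 2-fold lower have close copies and are uncertain too: SRGAP2B had 3.11 and 0.535 FPKM (-1.42), and the 4 SRGAP2 genes together 46.6 and 46.1 FPKM. RNF5 had 3.89 and 1.31 FPKM (-1.08), while its copy RNF5P1 had 87.5 and 83.9 FPKM. Also past 1.5-fold lower were NUDT8, at 5.59 and 3.17 FPKM (-0.66), and IFITM1, an interferon-induced membrane protein, at 19.5 and 12.4 FPKM (-0.61). Its close relatives IFITM3 and IFITM2 stood at -0.32 and -0.26.

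Differences of polyadenylated genes ran with the GC content of the transcript. Over 10 equal bins the median went from 0.12 at the lowest GC to -0.22 at the highest, and Spearman's rho across 10604 genes was -0.75, given as a description since genes of the same libraries are not independent. With IACS-9571 the medians went from 0.04 to -0.10 and rho was -0.41. The part of GC content in any difference given here was not tested beyond taking a cubic trend out. With it taken out, 15 genes were past 2-fold higher and 2 lower, and the sterol median was 0.60.

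**Figure D5:**
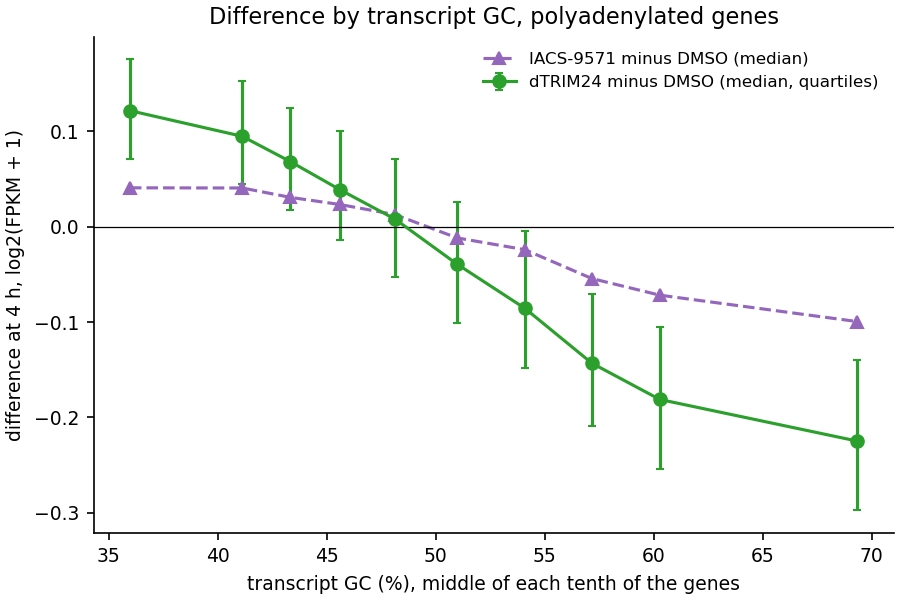
Median difference between dTRIM24 and DMSO at 4 h (filled points, bars at the quartiles) over 10 equal bins of transcript GC (%), with the median for IACS-9571 (triangles). The dTRIM24 medians go from 0.12 in the first bin to -0.22 in the last.

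None of the other 41 gene lists had a member past 2-fold, and 2 had a member past 1.5-fold (H3F3A and IFITM1). Medians of the 37 lists with at least 5 kept members lay between -0.16 and 0.07.

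Neutrophil granule genes were slightly lower: 15 of 16 were below 0 and the median was -0.16 (-0.13 after removal of the GC trend). AZU1, azurocidin, had 1029 FPKM in DMSO and 737 FPKM with dTRIM24 (-0.48), PRTN3, proteinase 3, 430.4 and 316.6 FPKM (-0.44), ELANE, neutrophil elastase, 1057 and 821 FPKM (-0.36) and CTSG, cathepsin G, 1604 and 1278 FPKM (-0.33). RNASE2 was level at 649 and 649.9 FPKM. Myeloid transcription factors had 12 of 12 below 0 with a median of -0.11. After removal of that trend 8 lay below and 4 above 0, and the median was -0.06. Among them were SPI1, which encodes PU.1, at 80.1 and 63.04 FPKM (-0.34) and CEBPA at 159 and 128 FPKM (-0.32); both transcripts lie in the highest GC bin, and once that trend was removed they stood at -0.12 and -0.09. Monocyte markers had 11 of 11 below 0 with a median of -0.13, from CD68 at -0.22 to CSF3R at -0.06, while after its removal 8 lay below and 3 above 0, and the median was -0.11. Of all polyadenylated genes 5690 of 10811 were below 0, and with the trend taken out 5744 of 10604.

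Leukaemia genes of the MLL-AF9 line were level. Of 21 genes of the HOXA, MEIS1 and MLL cofactor list 13 were above 0, with a median of 0.04: HOXA9 had 30.1 and 30.2 FPKM, MEIS1 12.3 and 13.1 FPKM, and MEF2C 50.3 and 50.8 FPKM. PSIP1, which encodes LEDGF, was highest at 0.24 and MEN1 lowest at -0.20. Of 20 kept interferon response genes 14 were below 0, with a median of -0.09; after IFITM1 the lowest were IFI6 at -0.42 and ISG15 at -0.35, and the highest was XAF1 at 0.23. Ribosomal protein genes had 71 of 77 below 0 with a median of -0.13.

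Stress lists stood near 0. Of 17 genes of NRF2 and oxidative stress 6 were above 0, with a median of -0.05; HMOX1, heme oxygenase, had 2.27 FPKM in DMSO, 1.74 FPKM with dTRIM24 and 15.2 FPKM with IACS-9571 at 4 h, and SLC7A11, the cystine transporter, had 7.05 and 8.98 FPKM (0.31). Of 20 genes of the unfolded protein response 13 were above 0, with a median of 0.04; DNAJB9 was highest, at 8.10 and 12.1 FPKM (0.52), followed by EDEM1 at 25.5 and 34.3 FPKM (0.41). Of 24 p53 targets 12 were above and 12 below 0, with a median of 0.00.

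The list of TRIM24, its relatives and the BRPF complexes, which holds TRIM24 and BRPF1 beside related and partner proteins, had a median of 0.01 over 12 kept genes. TRIM28 was lowest, at 170 and 137.8 FPKM (-0.30), and TRIM24 highest (0.23); TRIM33 stood at 0.11, BRPF1 at -0.15, BRD1 at -0.07, BRPF3 at 0.02, KAT6A at 0.09, KAT6B at 0.08, KAT7 at -0.04, ING4 at 0.02, ING5 at -0.15 and MEAF6 at 0.00. Genes of the VHL ligase, which the other end of dTRIM24 recruits, had 4 of 11 above 0 and a median of -0.06, with VHL itself at 8.75 and 9.72 FPKM (0.14) and TCEB2, elongin B, at 185.6 and 149 FPKM (-0.31). Of 22 hypoxia targets, which VHL controls through HIF, 12 were above 0, with a median of 0.01 and none past 1.5-fold.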

How the data were processed

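RNA of MOLM-13 cells was sequenced with ERCC spike-ins, and the submitters' processing notes name TopHat2, Cuffnorm and the hg19 build for the FPKM values of the authors; their annotation and use of strand are not given in the sources that were used. The deposited FPKM table holds 1 mean per group of 3 libraries, so the planned limma fit could not be used and differences of log2(FPKM + 1) are given with no test. Rows with at least 1 FPKM in either group were kept, spike-ins left out, and RNAs without a poly(A) tail assigned by gene name; called means 2-fold, or 1.5-fold where said. Members, gene lists and the naming rule (largest differences past 2-fold, then 1.5-fold, with a minimum level; up to 6 members a list; all sterol, histone processing, RNase P and TRIM24 genes, a few of which are not reported here) were chosen with earlier results of these data known. HMOX1, SCARNA12, the guide RNAs singled out by level, hosts, partners and copies, and genes under the minimum level were named after their values were seen. The counts over members with at least 1 FPKM in DMSO, and those of guide RNAs by level, were also added after the values were seen. GC content and stem-loops came from GENCODE transcripts (GRCh38), matched by symbol (98.1% of polyadenylated genes), and promoter windows from RefSeq (GRCh38.p14), for 8694 of 10811. Alternatives were other pseudocounts, filters, scalings and a GC correction. Steps were tested on simulated data. Scripts used pandas 2.3.3 and numpy 2.4.6 in Python 3.11.15, with figures by matplotlib 3.10.9 and rank correlations by scipy 1.17.1.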

Additional observations from a re-analysis of the deposited data

How the results depend on the processing

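The alternatives were a 1.5-fold threshold, a pseudocount of 0.1 or 0.5, a minimum of 5 FPKM or none, quantile normalization, centring on the median of polyadenylated genes, rescaling to the ERCC median and removal of the GC trend. The 15 polyadenylated genes past 2-fold higher became 37 at 1.5-fold. The 2 past 2-fold lower became 6 with a pseudocount of 0.1, 4 with 0.5, 0 at a minimum of 5 FPKM and 11 at 1.5-fold. The other counts stayed within 1.5 times: 147 to 182 RNAs without a tail higher (168 as reported), 27 to 37 lower (34), and 45 to 52 histone genes higher (50). The sterol median ran from 0.43 to 0.60. Of 126 single RNAs, in 755 recalculations, no called difference changed sign, and 162 moved by more than the spike-in SD of 0.21, mostly with other pseudocounts. No paired analysis was possible because the table holds group means only, and for the same reason no replicate could be left out. Depth is unknown, so no counting error can be given for any level.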
